A study of Mus musculus with 6 samples.

Results

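Thyroid hormone crosses the plasma membrane on carrier proteins. The transporters with mRNA described here are Slc16a10 (MCT10, a carrier of aromatic amino acids and T3), Slc7a5 (LAT1) and Slc7a8 (LAT2), Slc3a2 (4F2hc, the heavy chain that brings LAT1 and LAT2 to the cell surface), Slco1c1 (OATP1C1, a T4 carrier known from the blood-brain barrier) and Slc43a2 (LAT4, a facilitative carrier of large neutral amino acids). Crym, mu-crystallin, binds T3 in the cytosol. These 7 genes, of the 31053 listed, were picked by name for their role in thyroid hormone transport and binding, with earlier results of these data known.

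T4, the main circulating form of the hormone, is turned into T3 inside cells by the type 2 deiodinase, D2, the product of Dio2, and T3 then acts through nuclear receptors. Which carriers a cell makes bears on how much hormone can enter or leave it, and a cytosolic binder holds T3 within the cell. Most of these carriers also move large neutral amino acids, with leucine among them.

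The question was whether the transcripts of these genes in quiescent muscle stem cells (qMuSCs) change when Dio2 is deleted. qMuSCs lie on resting muscle fibers, and they were isolated by FACS from hindlimb muscles by a nuclear GFP under Pax7, a transcription factor that marks them. The 3 control mice, called WT (c124, c129 and c130), were Pax7nGFP/+;Pax7+/+;Dio2Fl/Fl, and the 3 cD2KO mice (fl125, fl126 and fl128) were Pax7nGFP/+;Pax7-CreERT2/+;Dio2Fl/Fl. Both groups were 3 to 4 months old, carried floxed Dio2 alleles and received tamoxifen, so that the Cre allele cannot be told apart from the loss of Dio2. Cre driven by Pax7 acts in Pax7-expressing cells, and by the study's own account recombination left some qMuSCs undeleted. RNA was sequenced from each mouse separately, and the labels do not say whether mice were littermates.

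Libraries held 2184073 to 3897787 counts, so that 3 counts stood for 0.768 to 1.36 CPM (counts scaled to library size with edgeR's TMM factors). Dio2 checks the labels and did not separate the groups. It was at 5.38, 1.85 and 3.46 CPM in c124, c129 and c130 and at 1.71 and 0.314 CPM in fl126 and fl128, but the library labelled fl125 had the highest value, 6.79 CPM, above every WT mouse and against its label. Incomplete recombination, reads outside the floxed part of the gene and a wrong label cannot be told apart here. Each cD2KO mean includes this library and carries that doubt. Fold changes without it are given below for Slc7a5, Slc7a8, Slc43a2 and Crym. For single genes that are not members, no fold change without it is given, so the doubt stays with them. Dio2 overlaps Gm26512, and the use of strand in counting is not given in the sources used here.

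Markers of other cells also differed between the groups. The muscle stem cell markers were all detected in every mouse, with 4 of 12 higher in cD2KO, and ran from 1909 to 2471 CPM as a sum in WT and from 2683 to 3495 CPM in cD2KO. Immune markers summed to between 4551 and 8657 CPM in WT and to between 234 and 2990 CPM in cD2KO libraries, with 4 of 16 lower. The library labelled fl125 had the lowest immune sum. Mural cell markers summed to between 6093 and 10337 CPM in WT and to between 12172 and 17933 CPM in cD2KO libraries, with 6 of 12 higher. Most of the difference between these sums lay in Acta2 (mean 2658 CPM in WT and 5973 CPM in cD2KO) and Myh11 (2179 and 4347 CPM). Rgs5 was at 1456 and 1460 CPM, and 3 of the 12, Pdgfrb, Kcnj8 and Abcc9, had a negative log2 fold change. Des is among both the mural and the muscle stem cell markers. Of the other lists, 7 of 12 tested endothelial, 3 of 11 fibroadipogenic and 3 of 9 Schwann cell markers and 10 of 19 dissociation genes were lower, and 1 of 10 myofiber markers was higher (unadjusted p under 0.05). Their part in the results on the transporters was not tested, and in such sorted bulk samples fewer cells of a type and less RNA per cell cannot be told apart.

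By level per length of exon, Slc3a2 stood first among the 7 genes. It averaged 26.8 CPM per kb over the 6 mice, and its range of 24.0 to 30.5 CPM per kb lay above that of every other member. Slc7a8 followed with a mean of 10.8 CPM per kb, then Slc7a5 with 6.34, Slc43a2 with 4.87, Crym with 1.64, Slc16a10 with 0.745 and Slco1c1 with 0.578 CPM per kb. Below Slc3a2, each gene's range over the mice overlapped that of the next in the order. Per length, Slc3a2 was above 86.4% of all 11633 genes tested, Slc43a2 above 45.9% and Slc16a10 above 3.11% of them. On the CPM scale without length, these shares were 84.6%, 69.1% and 7.79%, and Slc43a2 ranked 3 and Slc7a5 ranked 4. Whether these counts rise with transcript length is not given in the sources used here, and across genes the Pearson r of log2 length with log2 mean CPM was 0.035.

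**Figure D1:**
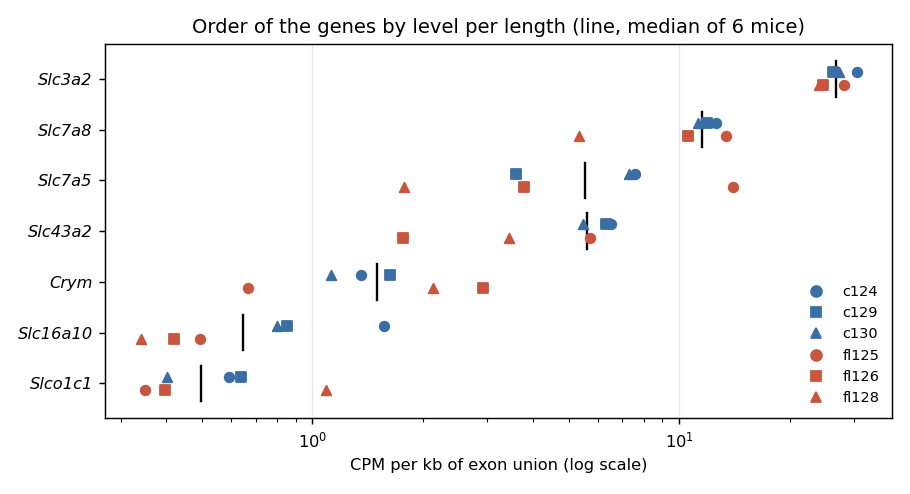
Level of each gene in CPM per kb of exon union on a log axis, with 1 point per mouse, blue for WT and red for cD2KO, and a line at the median of the 6 mice. Slc3a2 lies to the right of the other members in all mice, whereas the spread of Slc7a5, from 1.78 to 14.0 CPM per kb, crosses the points of Slc7a8 and Slc43a2.

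Of the 6 genes above the expression minimum, a mean of 10 normalized counts, 2 were lower in cD2KO mice, Slc16a10 and Slc43a2, and 0 were higher, with an unadjusted p under 0.05 as the threshold. Slc16a10 passed the minimum only through the WT mice, so nothing is read from this count. Of all 11633 genes tested, 6.62% were lower and 5.34% higher by the same rule. No member passed at an adjusted p under 0.05, a threshold that 0.00860% of all genes passed, and the adjusted p of the members ran from 0.377 to 0.988 (edgeR quasi-likelihood test with Benjamini-Hochberg adjustment). The median log2 fold change was -0.21 over the 6 members and -0.02 over all genes tested. The values of each gene in each mouse are given next, by role.

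**Figure D2:**
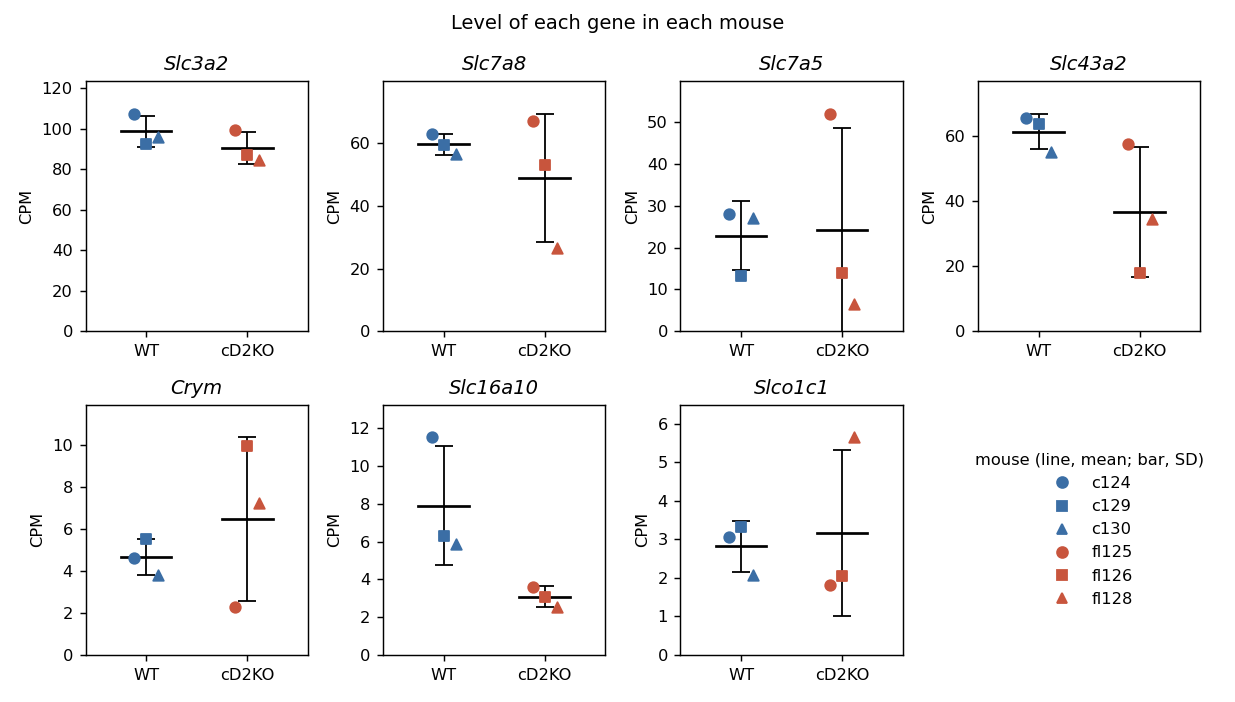
CPM of each of the 7 genes in each mouse, WT in blue and cD2KO in red, with the group mean as a line and the SD (n = 3 mice) as a bar, each panel on its own axis from 0. For Slc16a10 the 3 cD2KO points lie below the 3 WT points, whereas for the other genes the groups overlap.

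Slc16a10 (ENSMUSG00000019838), the aromatic amino acid and T3 carrier, is encoded on chromosome 10 of mm10 (minus strand, 40033532 to 40142258) in 8 exon blocks. Its level was 11.5, 6.28 and 5.88 CPM in c124, c129 and c130 and 3.62, 3.08 and 2.51 CPM in fl125, fl126 and fl128. All cD2KO mice were below all WT mice, and c124 was the highest. Slc16a10 was the only member whose groups did not overlap, against 18.1% of all genes tested, in either direction. The WT mean was 7.89 ± 3.15 CPM and the cD2KO mean 3.07 ± 0.555 CPM (SD, n = 3 mice each), which is 2.57-fold lower.

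The log2 fold change of Slc16a10 was -1.37 with a standard error of 0.58 (edgeR quasi-likelihood test, unadjusted p = 0.0332, adjusted p = 0.377). Slc16a10 passed the expression minimum only through the WT mice, so this p is a description and nothing is read from it. The two-sided exact permutation test of its CPM gave p = 0.1, the smallest that 3 mice against 3 allow. This rests on 79 counts in WT and 25 in cD2KO mice. The 95% Poisson interval of the lowest WT value, in c130, was 3.43 to 9.42 CPM and that of the highest cD2KO value, in the library labelled fl125, was 1.56 to 7.14 CPM, so these values overlap by counting error alone. Without c124 the log2 fold change was -0.99 (edgeR, unadjusted p = 0.178, adjusted p = 0.625).

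The 250 bases before the RefSeq start of Slc16a10 and of Slc43a2 are shown. These members had an unadjusted p under 0.05 (edgeR), Slc16a10 with the limit given above. They are from RefSeq promoters of GRCm38.p6, the assembly of mm10, and are written 5′ to 3′ on the strand of the gene in lower case with CG dinucleotides in capitals. The first is the reverse complement of chr10:40142255-40142504 and the second is chr11:75531444-75531693 on the plus strand, the more upstream of the Slc43a2 starts in the table.
Slc16a10: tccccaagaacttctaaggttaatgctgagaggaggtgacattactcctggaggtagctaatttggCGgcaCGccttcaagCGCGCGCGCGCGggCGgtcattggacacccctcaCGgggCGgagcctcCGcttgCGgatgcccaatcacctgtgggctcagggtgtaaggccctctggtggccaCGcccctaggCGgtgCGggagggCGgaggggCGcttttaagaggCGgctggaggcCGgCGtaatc
Slc43a2: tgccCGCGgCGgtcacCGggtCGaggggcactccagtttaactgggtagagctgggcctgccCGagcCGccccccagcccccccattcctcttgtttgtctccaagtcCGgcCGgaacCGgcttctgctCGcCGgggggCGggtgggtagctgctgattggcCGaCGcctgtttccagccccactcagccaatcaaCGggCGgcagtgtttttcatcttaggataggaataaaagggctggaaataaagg
The Slc16a10 stretch holds 21 CG dinucleotides, that of Slc43a2 holds 17, and the stretch before the other Slc43a2 start in the table, at chr11:75531862-75532111, holds 32, against a median of 6 over the same 250 bases of all 32851 promoters in the table. Those of Slc7a8 and Slc3a2 hold 14 and 11, and that of Slco1c1, a gene near the detection limit here, holds 0. No window of 300 bases of these 5 genes held the thyroid hormone receptor half-site AGGTCA, its direct repeat with 4 bases between, or the amino acid response motif TGATGNAA on either strand. Of all promoters, 16.3%, 0.0152% and 3.97% held them.

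The LAT1 and LAT2 light chains and their common heavy chain behaved differently from mouse to mouse. Slc3a2 (ENSMUSG00000010095, chromosome 19, minus strand, 8706882 to 8723369), the heavy chain, was at 107.5, 92.7 and 96.2 CPM in c124, c129 and c130 and at 99.6, 87.2 and 84.8 CPM in fl125, fl126 and fl128. Its highest mouse was 1.27-fold above its lowest. Its SD on the log2 scale over the 6 mice, 0.13, was larger than that of only 3.21% of the 6828 tested genes with a mean of 20 CPM or more. The log2 fold change was -0.13 with a standard error of 0.19 (edgeR, adjusted p = 0.859), and the interval of 2 standard errors ran from -0.51 to 0.25.

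Slc7a5 (ENSMUSG00000040010, chromosome 8, minus strand, 121881150 to 121907694), which encodes LAT1, the leucine and iodothyronine carrier, varied most. It was at 28.2, 13.3 and 27.0 CPM in c124, c129 and c130, and at 52.1, 14.0 and 6.59 CPM in fl125, fl126 and fl128. The highest value, in the library labelled fl125, was 7.90-fold above the lowest, in fl128, and the WT values lay between them. Its SD on the log2 scale, 1.01, was larger than that of 97.6% of the 6828 genes.

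The means of Slc7a5 were 22.8 ± 8.27 CPM (WT) and 24.2 ± 24.4 CPM (cD2KO). The log2 fold change was 0.05 with a standard error of 0.72 (edgeR, adjusted p = 0.988), and its interval of 2 standard errors ran from -1.39 to 1.48, which spans a marked fall and a marked rise. Without the library labelled fl125 the log2 fold change was -1.12 (edgeR, unadjusted p = 0.0209, adjusted p = 0.212).

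Slc7a8 (ENSMUSG00000022180, chromosome 14, minus strand, 54722209 to 54781946), which encodes LAT2, an exchanger of small and large neutral amino acids, was even among WT mice, at 63.0, 59.4 and 56.4 CPM. In the cD2KO mice it was at 67.0 CPM in the library labelled fl125, 53.0 CPM in fl126 and 26.7 CPM in fl128. The last mouse stood apart, and the other values lay just above and just below the WT range. The log2 fold change was -0.30 with a standard error of 0.29 (edgeR, adjusted p = 0.750), and without fl128 it was 0.0060. Without the library labelled fl125 it was -0.55 (edgeR, unadjusted p = 0.0645, adjusted p = 0.359).

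Relative to the heavy chain, the light chains ranged more widely among the libraries labelled cD2KO than among those of WT mice. The CPM per kb of exon of Slc7a5 and Slc7a8 were summed and divided by that of Slc3a2. This ratio was 0.662, 0.589 and 0.680 in c124, c129 and c130. It was 0.972, 0.582 and 0.296 in fl125, fl126 and fl128. The groups overlapped (two-sided exact permutation test, p = 0.8). Per kb, the ratio of Slc7a8 to Slc7a5 ran from 1.55 to 3.31 in WT and from 0.953 to 3.00 in cD2KO mice. On this per kb scale it was below 1 only in the library labelled fl125.

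Slc43a2 (ENSMUSG00000038178) lies on the plus strand of chromosome 11 from 75531694 to 75577575, and 922 bp of its exons overlap the antisense gene Gm45606, so reads from either cannot be told apart without strand. It was at 65.3, 63.5 and 55.0 CPM in c124, c129 and c130 and at 57.5, 17.8 and 34.5 CPM in fl125, fl126 and fl128. WT mice were close to one another, fl126 and fl128 were well below them, and the library labelled fl125 lay within the WT range. That library had the lowest immune marker sum, 234 CPM, and a link between these values was not tested.

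The WT mean of Slc43a2 was 61.3 ± 5.48 CPM and the cD2KO mean 36.6 ± 19.9 CPM. Its log2 fold change was -0.76 with a standard error of 0.34 (edgeR, unadjusted p = 0.0430, adjusted p = 0.396), and the two-sided exact permutation test of CPM gave p = 0.2. Without the library labelled fl125 the log2 fold change was -1.18 (edgeR, unadjusted p = 0.00088, adjusted p = 0.0420), where 2.60% of all genes passed at an adjusted p under 0.05 and 7.44% were lower at an unadjusted p under 0.05. Without fl126 it was -0.42 (edgeR, unadjusted p = 0.169, adjusted p = 0.713).

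**Figure D3:**
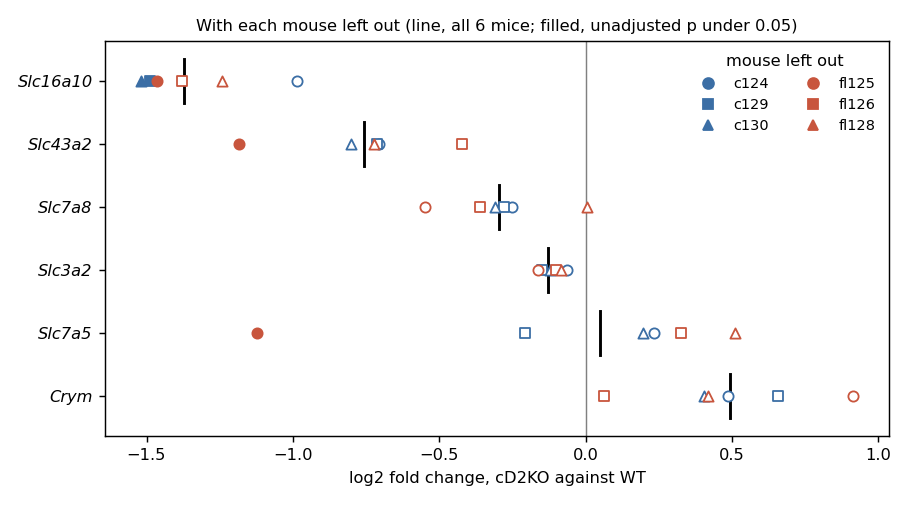
Log2 fold change of cD2KO against WT for the 6 tested genes with each mouse left out in turn (points, blue for a WT and red for a cD2KO mouse, filled at an unadjusted p under 0.05) and with all mice (line). Slc16a10, Slc43a2, Slc3a2 and Crym kept their sign in all 6 fits, and Slc7a5 ran from -1.12 without the library labelled fl125 to 0.51 without fl128.

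Slco1c1 (ENSMUSG00000030235, chromosome 6, plus strand, 141524368 to 141570177), the T4 carrier, was near the detection limit and below the expression minimum. It was at 3.07, 3.32 and 2.08 CPM in c124, c129 and c130 and at 1.81, 2.05 and 5.65 CPM in fl125, fl126 and fl128, from 4 to 18 counts a mouse. The highest was fl128, whose 95% Poisson interval of 3.35 to 8.93 CPM overlapped those of the WT mice. The groups overlapped (two-sided exact permutation test, p = 1).

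Crym (ENSMUSG00000030905, chromosome 7, minus strand, 120186380 to 120202111), the cytosolic T3 binder, which is also a ketimine reductase of lysine breakdown, was at 4.61, 5.54 and 3.81 CPM in c124, c129 and c130. It was at 2.26, 9.92 and 7.22 CPM in fl125, fl126 and fl128. The values of fl126 and fl128 were above those of all WT mice, and the library labelled fl125 was below them. The log2 fold change was 0.49 with a standard error of 0.61 (edgeR, adjusted p = 0.823), and without the library labelled fl125 it was 0.91 (edgeR, unadjusted p = 0.125, adjusted p = 0.471).

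The summed transporters were at 278.6, 238.5 and 242.6 CPM in c124, c129 and c130 and at 281.7, 177.2 and 160.8 CPM in fl125, fl126 and fl128. Slc3a2, Slc7a8 and Slc43a2 make up most of these sums. The sum of the library labelled fl125 was the highest of all and the other cD2KO sums were the lowest.

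Over the 6 mice, Slc7a5 moved with Slc7a8 and Slc3a2 (Pearson r of log2 CPM 0.82 and 0.81) and against Crym (-0.83). Slc16a10 moved with Slc3a2 (0.82), and Slc43a2 moved against Crym (-0.77). The genes most like each member among 6823 candidates with a mean of at least 20 CPM were Azi2, Nsd2 and Man2a2 for Slc16a10 (r from 0.97 to 0.99), and Saraf, Foxo1 and Rpl36a for Slc7a5 (0.988 to 0.997). They were Scaper, Ddx52 and Opcml for Slc7a8 (0.99), Tm9sf3, Ppp3r1 and Efnb1 for Slc3a2 (0.97 to 0.99), Ezr, Tmcc2 and Cnot2 for Slc43a2 (0.98 to 0.99), and Pgp, Lims1 and Sgta for Crym (0.98 to 0.99). These correlations are descriptions over 6 libraries that share their depth, sort and group.

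Of 13 other genes of thyroid hormone transport, only 4 were above the minimum, 4 were at 0 in all mice, and 2 of the 4 tested differed. Slco2b1, an organic anion carrier that takes T4, was at 52.5, 59.8 and 48.8 CPM in c124, c129 and c130 and at 17.2, 39.3 and 26.1 CPM in fl125, fl126 and fl128. All cD2KO mice were below all WT mice. Its log2 fold change was -0.95 with a standard error of 0.29 (edgeR, unadjusted p = 0.00553, adjusted p = 0.182), and its exons overlap antisense genes.

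Slc43a1, which encodes LAT3, the nearest relative of Slc43a2, went the other way. It was at 26.4, 19.6 and 35.3 CPM in c124, c129 and c130 and at 53.0, 43.4 and 35.5 CPM in fl125, fl126 and fl128, so that fl128 was barely above c130. Its log2 fold change was 0.69 with a standard error of 0.28 (edgeR, unadjusted p = 0.0285, adjusted p = 0.361). Within each mouse, the CPM ratio of Slc43a2 to Slc43a1 was 2.48, 3.25 and 1.56 in c124, c129 and c130 and 1.09, 0.409 and 0.973 in fl125, fl126 and fl128. All WT mice were above all cD2KO mice (two-sided exact permutation test, p = 0.1, the smallest possible), and the pair was chosen after the values were seen.

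**Figure D4:**
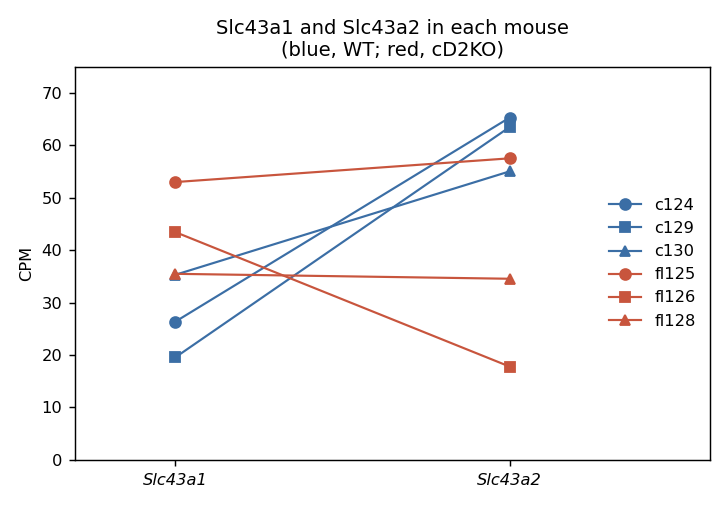
CPM of Slc43a1 and Slc43a2 in each mouse, joined by a line, WT in blue and cD2KO in red, on an axis from 0. The WT lines all rise from Slc43a1 to Slc43a2, with ratios of 1.56 to 3.25, whereas the cD2KO lines rise little or fall, with ratios of 0.409 to 1.09.

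Among the other monocarboxylate transporters and their chaperones, the family of Slc16a10, 2 of 7 tested genes were lower and 1 was higher. Emb, embigin, an accessory protein of monocarboxylate carriers, was at 31.2, 47.6 and 34.6 CPM in c124, c129 and c130 and at 3.62, 7.52 and 17.9 CPM in fl125, fl126 and fl128. Its log2 fold change was -1.92 with a standard error of 0.45 (edgeR, adjusted p = 0.102), and it overlaps Gm17509. Slc16a6 was lower (log2 fold change -1.16, edgeR adjusted p = 0.305) and Slc16a11 was higher (1.71, adjusted p = 0.191), both members of the family. Slco2b1, Emb and Slc16a6 were lowest in the library labelled fl125, the one with the lowest immune marker sum. Of the other lower carriers, Slc16a10, Slc43a2 and Slc6a6 (given below) were highest of the cD2KO libraries there, at 3.62, 57.5 and 66.6 CPM. A link of these levels with the immune markers was not tested.

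Of the partners of Slc3a2 and its relative rBAT beyond LAT1 and LAT2, 2 of 7 were tested and 0 changed. Of 16 tested carriers of other amino acids, 1 was lower, the taurine transporter Slc6a6 (log2 fold change -0.59, edgeR adjusted p = 0.360). Among amino acid response genes under ATF4, the group to which Slc7a5 and Slc3a2 belong, 0 of 22 changed at an unadjusted p under 0.05, with a median log2 fold change of -0.03. Of 22 genes of mTORC1 and amino acid sensing, 1 was lower, Sesn1, a sestrin of the leucine-sensing pathway (-0.51, adjusted p = 0.341).

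In the list of deiodinases, receptors and cofactors, 11 receptor and cofactor genes were tested and no deiodinase was above the minimum. Of these 11, 0 passed the same test, with a median log2 fold change of -0.01. The summed level of all 14 genes of this list was 1163 to 1199 CPM in WT and 1300 to 1360 CPM in the cD2KO libraries, without overlap (p = 0.1 by the two-sided exact permutation test, its lowest value here). The groups did not overlap for 4 of the 11, against 18.1% of all genes tested, with Thra, Rxrb and Ncor1 above and Thrb below WT in all cD2KO libraries. Most of the difference in the sum lay in Thra, the main thyroid hormone receptor gene here, whose WT mean was 322.3 ± 18.8 CPM and cD2KO mean 421.2 ± 20.6 CPM (SD, n = 3 mice each), and whose exons overlap antisense Nr1d1. Its log2 fold change was 0.39 with a standard error of 0.18 (edgeR, unadjusted p = 0.0556, adjusted p = 0.436), and these 4 genes were named after their values were seen. Dio1 was at 0 in all mice, and Dio3, the inactivating deiodinase, was at 0.453 to 2.08 CPM, below the minimum like Dio2. Of 13 tested T3 response genes, 1 changed, Slc2a4, which encodes the glucose transporter GLUT4 and was higher (0.82, edgeR adjusted p = 0.146). Of 3 tested genes for other T3 binders 0 changed, and of 5 tested genes of ketimine and lysine metabolism 1 was higher, Mpst (0.45, edgeR adjusted p = 0.415). Over these 10 lists, 5 of 102 tested genes (4.90%) were lower and 4 (3.92%) higher, with a median log2 fold change of -0.04.

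**Figure D5:**
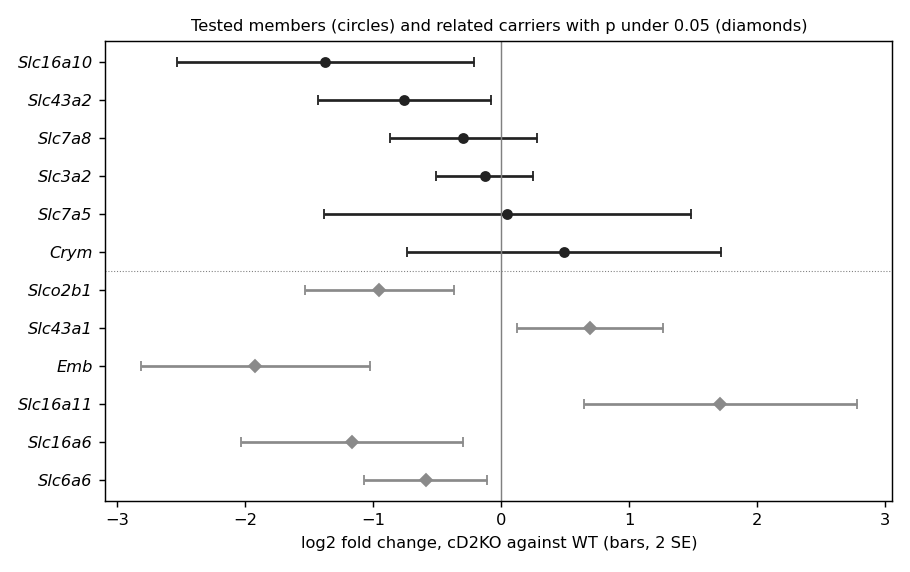
Log2 fold change of cD2KO against WT with bars of 2 standard errors for the 6 tested members (circles) and for the 6 related carriers and chaperones with an unadjusted p under 0.05 (diamonds). The bars of Slc16a10 and Slc43a2 stay below 0, those of the other 4 members cross it, and the bar of Slc3a2 is the shortest. Slc16a10 passed the expression minimum only through the WT mice.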

How the data were processed

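qMuSCs were sorted from 3 WT and 3 cD2KO mice. RNA was extracted with an RNeasy Mini Kit and sequenced by a commercial digital RNA-seq service. The values deposited by the authors are raw read counts per gene and mouse that were not normalized. The submitters' processing notes name bcl2fastq, STAR 2.6.0a, HTSeq 0.9.1 and mm10. Annotation, strand setting and treatment of PCR duplicates are not given in the sources used here, so counting intervals cover counting error only. Mice were grouped by the genotype in the labels. Symbols and coordinates came from GENCODE M21, which held 31011 of the 31053 identifiers.

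The study's expression minimum, a DESeq2-normalized mean over 10, left 11633 genes. Their counts were fitted over all 6 mice in edgeR 4.0.16 (R 4.3.3) with TMM factors, the robust quasi-likelihood test and no covariate, with Benjamini-Hochberg adjustment over all of them. Genes were called at an unadjusted p under 0.05, the study's threshold, with adjusted p beside it. Single values were compared by two-sided exact permutation tests with SciPy 1.17.1, and standard deviations are between mice. Log2 CPM had a prior count of 2.

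The members and gene lists were chosen with earlier results of these data known. The genes named were the 7 members, Dio2, Dio3, the listed pathway genes with an unadjusted p under 0.05 (at most 4 in each direction a list) and, for each member above the minimum, the 3 genes with the highest Pearson r. Thra, Rxrb, Ncor1, Thrb and some mural markers were also named, after their values were seen. Promoters were found for 5 of the 7 members. The lists covered other thyroid hormone transporters, deiodinases and receptors, T3 response genes, other T3 binders, ketimine metabolism, 4F2hc and rBAT partners, other amino acid and monocarboxylate transporters, ATF4 targets, mTORC1, dissociation genes and markers of 7 cell types.

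The alternatives were DESeq2 1.42.0, limma 3.58.1 voom, other scalings and minimums, a non-robust fit, an adjusted threshold and leaving out each mouse. The edgeR test was tested on simulated data made from these libraries, in which 112 genes had a log2 fold change of 1 or -1. Of these, 82.1% had an unadjusted and 27.7% an adjusted p under 0.05, as did 4.48% (unadjusted) of 11433 genes left unchanged. The changed genes were drawn above a minimum mean that Slc16a10 and Crym, at 15.8 and 16.1 normalized counts, did not reach. The shares of 82.1% and 27.7% therefore do not cover those genes. They are averages over the drawn genes and were not worked out for genes as variable as Slc7a5 and Slc43a2. The SD of log2 CPM of these members was larger than that of 97.6% and 95.0% of 6828 genes.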

Additional observations from a re-analysis of the deposited data

How the results depend on the processing

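With DESeq2, 2 members were lower, as in edgeR, against 697 of all 11633 genes tested. With limma voom, 1 was lower, against 722 of 11633. With a minimum mean of 50, which Slc16a10 did not reach, 1 was lower, against 505 of 7353. At an adjusted p under 0.05, 0 were. With each mouse left out, 0 to 3 were lower, against 408 to 866 of 11633. As with the main count, nothing is read from these counts. Slc16a10 was at -1.36 by voom (limma, unadjusted p = 0.0506) and from -1.52 to -0.99 with a mouse left out, at an unadjusted p under 0.05 in 3 of 6 fits. Slc43a2 ran from -1.18 to -0.42 and passed in 1 of 6. Slc7a5 changed sign by voom (-0.54), without c129 (-0.21) and without the library labelled fl125 (-1.12), and otherwise reached 0.51. Slc7a8 ran from -0.55 to 0.0060 and changed sign without fl128. The cause of these changes was not tested. Slc3a2 (-0.16 to -0.06) and Crym (0.06 to 0.91) kept their sign and passed in 0 fits.

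Of the listed pathway genes, 7 were higher by voom, against 627 of all 11633 genes tested, and 7 with DESeq2 size factors, against 698. With no minimum 8 were higher, against 939 of 18040, and with a minimum mean of 50 it was 2, against 431 of 7353. With a mouse left out, 2 to 7 were higher, against 406 to 934 of 11633, and 3 to 7 lower, against 408 to 866. At an adjusted p under 0.05, 0 were higher and 0 lower, against 1 of all genes in either direction. The number of listed genes tested in each setting is not given here, so nothing is read from these counts. Scaling to the total count gave 445 genes higher and 945 lower of all tested, against 621 and 770 with TMM. At an adjusted p under 0.05 DESeq2 called 276 genes, the fit with no minimum 510 and that without the library labelled fl125 303, against 1. No paired analysis was made because the labels do not say that any WT and cD2KO mice form pairs. At these depths a gene at the level of Slc16a10 or Slco1c1 had 4 to 45 counts a mouse.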

Other observations

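Slc7a5 and Dio2 ordered the mice almost alike. The library labelled fl125 was highest for both genes (52.1 and 6.79 CPM), followed by c124 (28.2 and 5.38 CPM) and c130 (27.0 and 3.46 CPM). The lowest for both was fl128 (6.59 and 0.314 CPM), and c129 and fl126 lay between, in swapped order. The Pearson r of log2 CPM over the 6 mice was 0.98, and it was 0.98 without the library labelled fl125 and 0.94 without that library and fl128. Of 6823 genes with a mean of at least 20 CPM, 10 had an r with Dio2 at least as high as that of Slc7a5. The r with Dio2 was 0.89 for Slc7a8 and Slc3a2, 0.57 for Slc16a10, 0.54 for Slc43a2, -0.75 for Slco1c1 and -0.76 for Crym. Dio2 had 1 to 21 counts a mouse, and this relation was noticed in the data, so it is given as a description only.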
